A study of Mus musculus with 4 samples.

Results

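The catalytic subunits of the immunoproteasome (Psmb8, Psmb9 and Psmb10) and its PA28 activator (Psme1 and Psme2) were set against the constitutive catalytic subunits (Psmb5, Psmb6 and Psmb7) in kidneys of mice with glomerulonephritis (GN), in which the glomeruli that filter the blood are inflamed. The 8 genes were taken by name, with all their probe sets. On the array, 12394 genes had a probe set of 1 symbol, and 7 of the 8 were among them. Each of the 8 had 1 probe set. For 7 of them it carried that gene's symbol alone, while the probe set of Psme2 was annotated to both Psme2 and Psme2b and is given apart, outside all counts. Counts therefore run over 4 inducible members (Psmb8, Psmb9, Psmb10 and Psme1) and 3 constitutive subunits.

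The proteasome is the cell's main protease for ubiquitin-tagged proteins. Its 20S core is a barrel whose inner rings hold 3 kinds of active site, formed in most cells by Psmb5, Psmb6 and Psmb7. In leukocytes, and in other cells exposed to interferon gamma, newly built cores take in Psmb8 in place of Psmb5, Psmb9 in place of Psmb6 and Psmb10 in place of Psmb7, which changes the peptides made for presentation on MHC class I. The PA28 ring, built of the Psme1 and Psme2 products, caps the core and is also interferon-inducible.

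Whole-kidney RNA was taken from C57BL/6 mice that the labels give as male and aged 17 weeks, and hybridised as biotinylated cRNA, with 1 array for each of 4 groups. GN+Captopril mice received intraperitoneal horse spleen apoferritin, at 10 mg on 5 days of the week for 6 weeks, together with lipopolysaccharide at 100 µg on 3 occasions weekly, and captopril, an inhibitor of angiotensin converting enzyme, at 100 mg/kg/day in the drinking water. GN+Water mice received the same injections and water, Saline+Captopril mice received 0.15 M NaCl injections and captopril, and Saline+Water mice received saline injections and water. Injections began at about 8 weeks of age and kidneys were taken after 9 weeks; the labels describe 6 mice a group and do not say how many contributed to an array. The study asked whether captopril lessens interstitial injury. With 1 array per group no difference has a replicate check, an error or a p-value, and counts of genes past 1.5-fold are to be read against the share of all genes that differed as much.

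A pair of the 4 arrays stood apart. On the GN+Water-labelled array, Xist, transcribed from the inactive X, had a log2 level of 8.97, against 5.02 to 5.21 on the others, and Y-linked Eif2s3y stood at 3.43, against 8.02 to 8.29, so the array goes against its male label and is called the GN+Water-labelled array throughout. On Saline+Water the median of 18 spike-in control probe sets was 10.8, against 7.46 to 7.89 on the others, and its Pearson correlation with the other arrays over all probe sets was at most 0.966. The comparison of GN+Captopril with Saline+Captopril uses neither array. Kidney markers were high on all 4 arrays: Umod of the thick ascending limb lay between 13.2 and 13.5 and Slc34a1 of the proximal tubule between 13.2 and 13.4 (log2). Other markers of these segments varied more. Slc12a1 of the thick ascending limb was at 11.6 on Saline+Water and 12.5 to 12.7 elsewhere. Slc22a6 of the proximal tubule was at 10.6 on the GN+Water-labelled array and 11.8 to 12.5 elsewhere. The lowest level of any member on any array was 7.20, while 27 negative-control probe sets had a 90th percentile of 4.36 to 4.81.

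The start-site windows of 3 inducible members, which were higher on both GN arrays, and 2 constitutive ones, which were not, are shown for comparison; those of Psmb10 and Psme2 were searched but are not printed. Each window runs from 250 bases before to 50 after a gene's start, from RefSeq on GRCm38.p6, and 7 of the 8 members matched the table; Psmb7 did not. Capitals mark the gamma-activated site pattern TTCNNNGAA in Psmb8, the core of the interferon-stimulated response element (GAAA, any 2 bases, GAAA, read here on the opposite strand) in Psme1, and the GC box GGGCGG, on either strand, in Psmb9 and Psmb6. Psmb5 held none of these patterns.
Psmb8, chr17:34197945-34198244, plus strand: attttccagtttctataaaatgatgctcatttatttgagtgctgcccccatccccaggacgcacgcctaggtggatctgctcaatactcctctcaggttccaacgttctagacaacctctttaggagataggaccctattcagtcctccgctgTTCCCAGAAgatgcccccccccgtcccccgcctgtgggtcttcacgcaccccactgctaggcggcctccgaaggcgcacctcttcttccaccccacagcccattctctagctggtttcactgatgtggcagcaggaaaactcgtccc
Psmb9, chr17:34187281-34187580, minus strand: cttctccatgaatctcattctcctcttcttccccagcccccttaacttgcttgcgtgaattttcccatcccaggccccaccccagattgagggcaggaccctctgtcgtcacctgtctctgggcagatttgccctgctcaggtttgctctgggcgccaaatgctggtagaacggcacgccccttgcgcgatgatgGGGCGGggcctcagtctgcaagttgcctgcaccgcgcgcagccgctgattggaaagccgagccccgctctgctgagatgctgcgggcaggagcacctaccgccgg
Psme1, chr14:55578244-55578543, plus strand: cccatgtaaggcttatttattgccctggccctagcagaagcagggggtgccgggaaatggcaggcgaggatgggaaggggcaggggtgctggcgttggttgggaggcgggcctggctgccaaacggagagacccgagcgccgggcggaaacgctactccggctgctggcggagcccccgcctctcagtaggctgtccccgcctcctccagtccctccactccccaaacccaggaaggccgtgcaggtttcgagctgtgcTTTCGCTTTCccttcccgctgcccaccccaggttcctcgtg
Psmb5, chr14:54617946-54618245, minus strand: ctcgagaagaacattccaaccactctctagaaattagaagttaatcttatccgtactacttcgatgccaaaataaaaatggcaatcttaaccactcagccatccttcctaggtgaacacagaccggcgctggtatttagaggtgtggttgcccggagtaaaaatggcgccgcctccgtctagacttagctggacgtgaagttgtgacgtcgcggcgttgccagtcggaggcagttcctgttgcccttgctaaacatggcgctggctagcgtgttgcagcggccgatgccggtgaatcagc
Psmb6, chr11:70525107-70525406, plus strand: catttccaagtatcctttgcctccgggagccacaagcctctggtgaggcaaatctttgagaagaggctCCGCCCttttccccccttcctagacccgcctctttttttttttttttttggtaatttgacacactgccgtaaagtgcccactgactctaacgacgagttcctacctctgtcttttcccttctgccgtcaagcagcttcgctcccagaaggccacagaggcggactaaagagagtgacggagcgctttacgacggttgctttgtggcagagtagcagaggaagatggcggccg

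Both strands were searched for 4 patterns, the 3 above and GGG, any 5 bases, CC, a loose form of the site bound by NF-kappaB. TTCNNNGAA was found in Psmb8 alone among the 7 matched members, at bases 154 to 162 of its window, and is present in 8.3% of the 32851 windows in the table. The response element core was found in Psme1 alone, at bases 260 to 269, and is present in 3.44% of windows. GGGCGG occurred in Psmb9, Psme1, Psme2 and Psmb6, against 35.7% of windows, and the NF-kappaB pattern in the same genes, against 50.8%; the 2 patterns can overlap, as they do in Psmb9 and Psmb6. The window of Psmb10 held none of the 4. A match is a description of these letters and not evidence of binding, and a missing match concerns this window only. The Psmb9 window shares 275 bases with that of Tap1, a peptide transporter gene read in the opposite direction.

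All 4 inducible members were higher on both GN arrays than on both saline arrays, and none of the 3 constitutive subunits was. Over all 8207 genes past a filter on low values, which every member passed, both GN arrays lay above both saline arrays for 16.1%. The 4 inducible members also lay apart without the Saline+Water array, where 26.5% of genes did, and without the GN+Water-labelled array, where 27.7% did.

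Psmb8, also known as LMP7, forms the chymotrypsin-like site in place of Psmb5. Its level (log2) was 9.21 on GN+Captopril and 9.52 on the GN+Water-labelled array, against 8.42 on Saline+Captopril and 7.89 on Saline+Water. Both GN arrays were above both saline arrays, and the saline arrays differed between themselves by 0.54. Psmb8 was 1.73-fold higher in GN+Captopril than in Saline+Captopril and 3.11-fold higher on the GN+Water-labelled array than on Saline+Water. Relative to Saline+Captopril, the GN+Water-labelled array was 2.14-fold higher.

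Psmb9, also known as LMP2, takes the place of Psmb6. It stood at 8.48 on GN+Captopril and 8.49 on the GN+Water-labelled array, against 7.20 on Saline+Captopril and 7.53 on Saline+Water. The GN arrays were nearly equal, and it was the member with the widest gap between the groups, 0.95 from the lower GN array to the higher saline array. GN+Captopril was 2.43-fold above Saline+Captopril, and the GN+Water-labelled array was 1.95-fold above Saline+Water.

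Psmb10, also known as MECL-1, takes the place of Psmb7 at the trypsin-like site. Its level was 8.97 on GN+Captopril and 9.24 on the GN+Water-labelled array, against 8.40 on Saline+Captopril and 8.29 on Saline+Water. The saline arrays were within 0.10 of each other and the GN arrays lay above them. Psmb10 was 1.49-fold higher in GN+Captopril than in Saline+Captopril, just under the 1.5-fold threshold, and 1.92-fold higher on the GN+Water-labelled array than on Saline+Water.

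**Figure D1:**
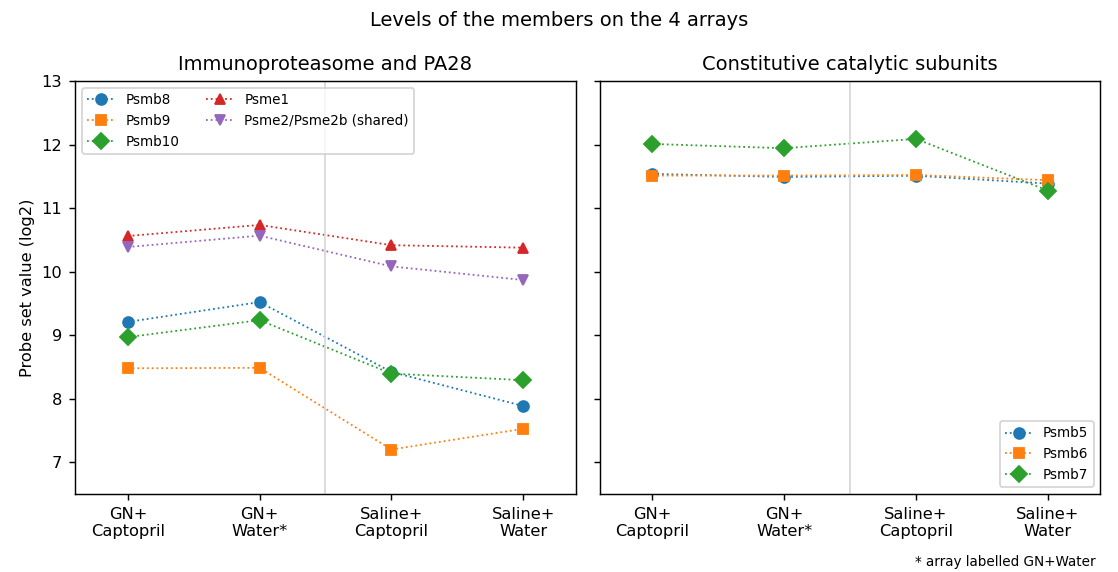
Log2 probe set value of each member (vertical axis) on the 4 arrays (horizontal axis), 1 point per array, with dotted lines joining the points of a gene as a guide. On the left, Psmb8, Psmb9 and Psmb10 are higher on both GN arrays; on the right, Psmb5 and Psmb6 are level and Psmb7 is lower on Saline+Water, at 11.3.

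The PA28 genes differed less. Psme1, the alpha subunit of the ring, was at 10.6 on GN+Captopril and 10.7 on the GN+Water-labelled array, against 10.4 on Saline+Captopril and 10.4 on Saline+Water. It was 1.11-fold higher in GN+Captopril than in Saline+Captopril and 1.28-fold higher on the GN+Water-labelled array than on Saline+Water, below the 1.5-fold threshold in each case. The probe set shared by Psme2, the beta subunit, and Psme2b was at 10.4 on GN+Captopril and 10.6 on the GN+Water-labelled array, against 10.1 on Saline+Captopril and 9.87 on Saline+Water, and which of its genes it reports cannot be told apart. Its differences were 1.24-fold and 1.62-fold, in GN+Captopril over Saline+Captopril and on the GN+Water-labelled array over Saline+Water.

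Of the constitutive subunits, Psmb5, the chymotrypsin-like one, was at 11.5 on GN+Captopril and 11.5 on the GN+Water-labelled array, against 11.5 on Saline+Captopril and 11.4 on Saline+Water. Psmb6, the caspase-like one, was at 11.5 on both GN arrays, against 11.5 on Saline+Captopril and 11.4 on Saline+Water. The whole range over the 4 arrays was 0.15 for Psmb5 and 0.08 for Psmb6. Psmb7, the trypsin-like one, was at 12.0 on GN+Captopril and 11.9 on the GN+Water-labelled array, against 12.1 on Saline+Captopril and 11.3 on Saline+Water. Saline+Water was the only array on which Psmb7 stood apart, by 0.67 from the next lowest. Psmb7 was thus 1.59-fold higher on the GN+Water-labelled array than on Saline+Water, but 1.06-fold lower in GN+Captopril than in Saline+Captopril, and 1.11-fold lower on the GN+Water-labelled array than on Saline+Captopril.

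In captopril-treated mice, 2 of 4 inducible members (Psmb8 and Psmb9) were at least 1.5-fold higher in GN+Captopril than in Saline+Captopril, against 1.85% of all genes, and 0 were lower, against 0.207%. Psmb9 also passed 2-fold, as 0.719% of all genes did. Neither threshold was passed by any of the 3 constitutive subunits. The median log2 difference was 0.68 over the inducible members and -0.01 over the constitutive ones, against 0.0 over all genes. Psmb9, Psmb8 and Psmb10 lay above 99.6%, 99.0% and 98.1% of all genes in this comparison, Psme1 above 83.9%, and Psmb5, Psmb6 and Psmb7 above 60.3%, 40.4% and 22.4%. In water-drinking mice, 3 of 4 inducible members were at least 1.5-fold higher on the GN+Water-labelled array than on Saline+Water, and so was 1 of 3 constitutive subunits, Psmb7, but here 19.6% of all genes were as well; 0 members were as much lower, against 15.3%. Psmb8 passed 2-fold, as 10.3% of all genes did. The medians were 0.95 and 0.10, and Psmb8, Psmb9 and Psmb10 lay above 96.4%, 88.9% and 88.7% of all genes. Psmb8 and Psmb9 passed the threshold in both comparisons, which 1.5% of all genes did.

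The difference between the mean log2 change of Psmb8, Psmb9 and Psmb10 and that of Psmb5, Psmb6 and Psmb7 was 0.90 in GN+Captopril over Saline+Captopril, a 1.87-fold shift of the immunoproteasome subunits relative to the constitutive ones. It was also 0.90 on the GN+Water-labelled array over Saline+Water, but this value depended on the arrays used: it was 1.13 with Saline+Captopril as the saline array and 0.67 with GN+Captopril as the GN array. The catalytic positions were less alike. The shift of Psmb8 relative to Psmb5 was 0.76 with captopril and 1.53 with water, that of Psmb9 relative to Psmb6 was 1.29 and 0.89, and that of Psmb10 relative to Psmb7 was 0.65 and 0.28. The low value of 0.28 includes the Psmb7 level of Saline+Water. These are unequal changes between probe sets and say nothing of the amounts of protein or of assembled proteasomes.

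**Figure D2:**
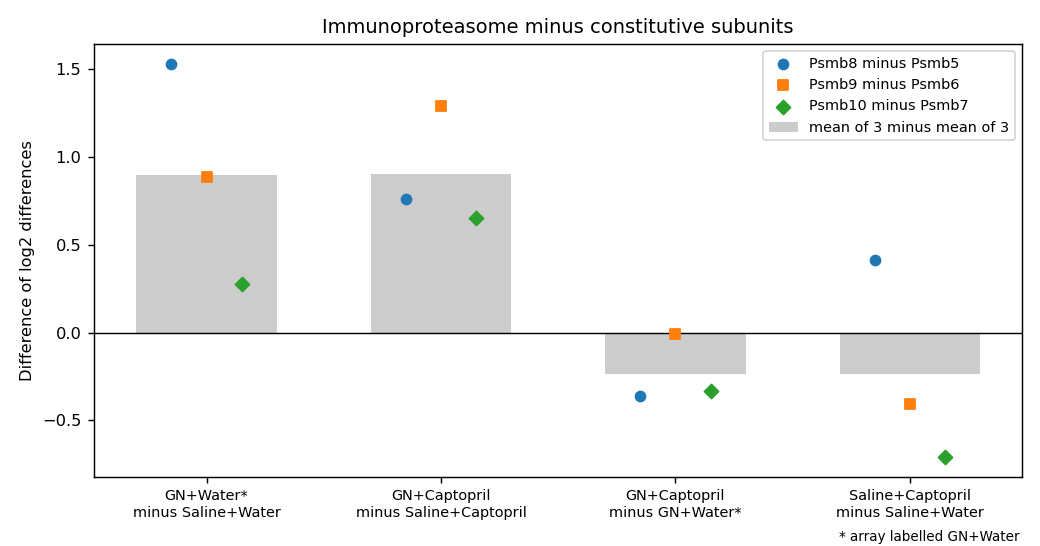
Mean log2 difference of Psmb8, Psmb9 and Psmb10 minus that of Psmb5, Psmb6 and Psmb7 (bars, vertical axis from 0) in the 4 comparisons, with points for the 3 catalytic positions. Both GN comparisons reach 0.90, and both captopril comparisons are at -0.23.

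Captopril was compared with water within GN and within saline kidneys. Within GN kidneys no member reached 1.5-fold in either direction, while 3.7% of all genes were that much higher and 4.52% that much lower. All 4 inducible members were lower in GN+Captopril than on the GN+Water-labelled array, by 1.24-fold for Psmb8, 1.20-fold for Psmb10, 1.13-fold for Psme1 and 1.01-fold for Psmb9. Their median difference was -0.22, against 0.003 over all genes. Psmb8, Psmb10, Psme1 and Psmb9 lay above 11.8%, 13.9%, 20.9% and 43.6% of all genes, so Psmb9 was near the middle. Psmb5 and Psmb7 were 1.03-fold and 1.05-fold higher and Psmb6 was equal. The comparison includes the array whose sex-linked transcripts go against its label, and the part of that in the result was not tested. In saline kidneys, Psmb7 alone reached 1.5-fold, at 1.76-fold higher in Saline+Captopril than in Saline+Water, where 15.6% of all genes were as much higher and 6.43% were 2-fold higher. No member was 1.5-fold lower, against 10.2%. Psmb8 was 1.45-fold higher and Psmb9 1.25-fold lower, so the catalytic immunoproteasome genes differed in both directions there. The median was 0.07 over the inducible members and 0.12 over the constitutive ones.

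The rest of the proteasome differed little where neither array that stood apart was used, as did most genes. Over 31 other genes of the 20S core and the 19S regulator, the cap that unfolds tagged proteins, the difference of GN+Captopril from Saline+Captopril ran between -0.15 (Psmd5) and 0.12 (Psma2), with a median of -0.01, and 0 of 31 reached 1.5-fold either way, against 1.85% of all genes higher and 0.207% lower, so the count is near that of all genes. Psmb8, Psmb9 and Psmb10 were each outside that range. By role, the medians were 0.02 for 11 other core subunits, 0.02 for 6 ATPases and -0.03 for 14 measured non-ATPases of the 19S regulator, with Adrm1 not represented by a probe set of 1 symbol.

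On the GN+Water-labelled array relative to Saline+Water the same 31 genes were spread between -0.76 (Psmd9) and 1.12 (Psma7), with 2 at least 1.5-fold higher and 1 lower, against 19.6% and 15.3% of all genes. Psma7, a ring subunit of the core, was at 10.8 on GN+Captopril and 10.8 on the GN+Water-labelled array, against 10.7 on Saline+Captopril and 9.66 on Saline+Water. Its other probe set differed by 0.04 between the GN+Water-labelled array and Saline+Water, so its 2 probe sets disagree in size. Psma6, at 0.63, and Psma1, at 0.54, were low on Saline+Water in the same way, although other probe sets of each reached -0.42 and -0.29. In all 5 of the 31 genes were lowest on Saline+Water by at least 0.5, or 16.1%, against 14.8% of all genes. The 19S subunit gene Psmd9 went the other way, with 9.00 on Saline+Water and 8.24 to 8.36 elsewhere.

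Among the assembly factors and regulators, Psmg2, a chaperone of core assembly, was at 9.08 on GN+Captopril and 8.93 on the GN+Water-labelled array, against 9.17 on Saline+Captopril and 7.69 on Saline+Water. Only Saline+Water stood apart. Nfe2l1, the transcription factor that raises proteasome genes when the protease is inhibited, was at 8.93 on GN+Captopril and 9.26 on the GN+Water-labelled array, against 8.92 on Saline+Captopril and 9.82 on Saline+Water. In GN+Captopril over Saline+Captopril 0 of 7 measured genes of this list passed 1.5-fold, as 1.85% of all genes did upward, and the median was 0.0. The other activators, Psme3 (PA28 gamma) and Psme4 (PA200), together with the inhibitor Psmf1, had a median of -0.01 in that comparison and -0.32 on the GN+Water-labelled array over Saline+Water, with 0 of 3 past 1.5-fold in each. Of all genes, 1.85% were as much higher and 0.207% as much lower with captopril, and 19.6% and 15.3% with water. Another Psme3 probe set was at -0.93 with water, and with captopril its 3 probe sets ran between -0.47 and 0.21.

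**Figure D3:**
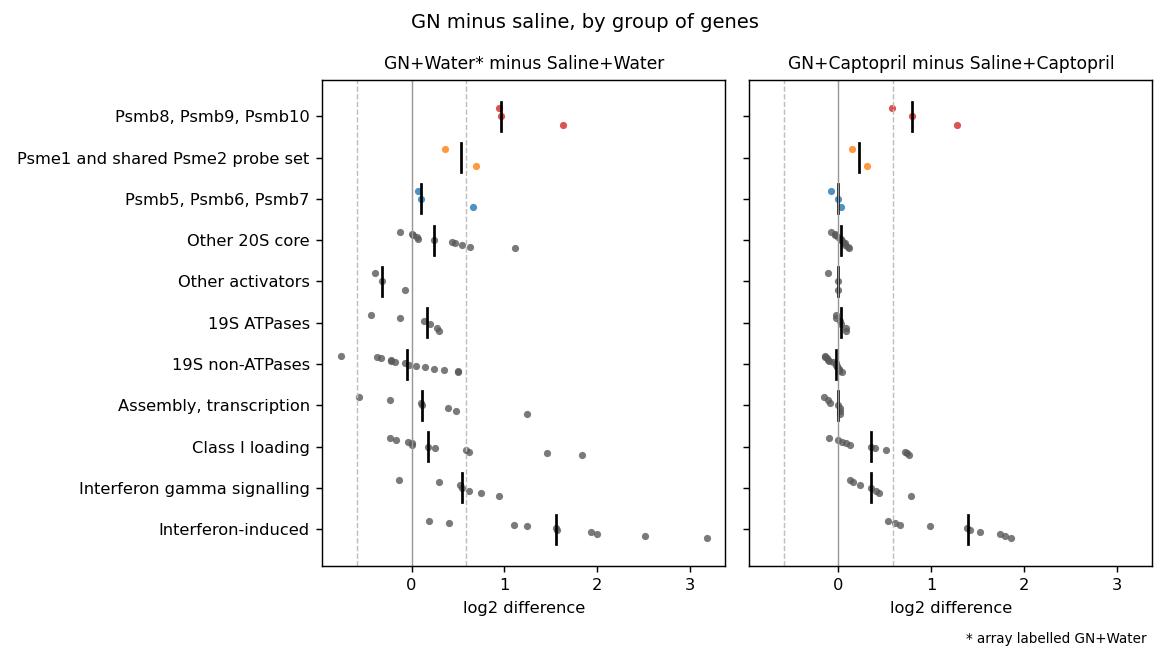
Log2 difference of GN from saline kidneys (horizontal axis) for each gene past the filter (points) by group of genes (rows), with the median as a black bar and dashed lines at 1.5-fold. In the right panel, GN+Captopril minus Saline+Captopril, all constitutive, core and 19S genes lie between -0.15 and 0.12 while Psmb8, Psmb9 and Psmb10 lie between 0.57 and 1.28.

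Genes that act after the proteasome in antigen presentation were higher in part. Of 11 genes of peptide transport and MHC class I loading, 3 were at least 1.5-fold higher in GN+Captopril than in Saline+Captopril and 4 on the GN+Water-labelled array than on Saline+Water, with medians of 0.35 and 0.18. Of all genes, 1.85% and 19.6% were as much higher in these comparisons. B2m, the light chain of class I, was at 13.3 on GN+Captopril and 13.2 on the GN+Water-labelled array, against 12.6 on Saline+Captopril and 11.8 on Saline+Water. The class I heavy chain gene H2-K1 was 0.74 higher (log2) in GN+Captopril than in Saline+Captopril. It was 0.59 higher on the GN+Water-labelled array than on Saline+Water. Its 4 probe sets ran between -0.0035 and 0.74 with captopril and between 0.09 and 1.84 with water. H2-D1 was 0.51 and 1.83 higher, but only 5 of its 9 probe sets had the same sign as the one used in each comparison. Class I genes share sequence, so the identity of each is uncertain.

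Tap1, whose start-site window overlaps that of Psmb9, was at 7.63 on GN+Captopril and 7.39 on the GN+Water-labelled array, against 6.87 on Saline+Captopril and 7.39 on Saline+Water. It was thus 0.76 higher in GN+Captopril than in Saline+Captopril, as Psmb9 was by 1.28, but equal on the GN+Water-labelled array and Saline+Water, where Psmb9 differed by 0.96. Its 4 probe sets ran between -0.50 and 0.00 there and between -0.03 and 0.76 with captopril. Tap2, which lies beside Psmb8 in the same gene cluster, was at 7.53 on GN+Captopril and 7.49 on the GN+Water-labelled array, against 7.19 on Saline+Captopril and 7.48 on Saline+Water. Psmb9, Tap1 and Tap2 were thus each higher on Saline+Water than on Saline+Captopril, while Psmb8 was lower.

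Interferon gamma acts through its receptor and the kinases Jak1 and Jak2 to raise Irf1 and, with it, the immunoproteasome genes. Of 7 genes of this pathway past the filter, 1 was at least 1.5-fold higher in GN+Captopril than in Saline+Captopril and 3 on the GN+Water-labelled array than on Saline+Water, with medians of 0.35 and 0.54, where 1.85% and 19.6% of all genes were as much higher. Irf1 was at 8.66 on GN+Captopril and 8.75 on the GN+Water-labelled array, against 8.32 on Saline+Captopril and 8.88 on Saline+Water, so its GN difference was 0.35 with captopril and -0.13 with water. Irf8, a factor of myeloid cells, was at 8.39 on GN+Captopril and 8.28 on the GN+Water-labelled array, against 7.60 on Saline+Captopril and 7.53 on Saline+Water. Ifngr1, a receptor chain, was at 8.59 and 8.65 on these GN arrays, against 8.16 and 8.11. The levels of Ifng itself, 3.94 on GN+Captopril and 3.86 on the GN+Water-labelled array, against 3.94 on Saline+Captopril and 4.39 on Saline+Water, were below each array's 90th percentile of negative controls.

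Genes induced by interferons had a larger median difference than the inducible members, though not each gene did. Of 10 past the filter, 9 were at least 1.5-fold higher in GN+Captopril than in Saline+Captopril and 8 on the GN+Water-labelled array than on Saline+Water, with medians of 1.40 and 1.56, where 1.85% and 19.6% of all genes were as much higher. Irgm1, at 0.66 with captopril and 0.19 with water, differed less than Psmb8 in both. Gbp2, a GTPase of defence against intracellular pathogens, was at 8.93 on GN+Captopril and 8.91 on the GN+Water-labelled array, against 7.08 on Saline+Captopril and 6.99 on Saline+Water. Iigp1, another such GTPase, was at 9.90 on GN+Captopril and 9.74 on the GN+Water-labelled array, against 8.11 on Saline+Captopril and 7.74 on Saline+Water. The chemokine gene Cxcl10 differed by 1.38 with captopril and 2.51 with water. Gbp3 differed by 0.61 and 3.18, with a level of 9.59 on the GN+Water-labelled array and 6.40 to 7.37 elsewhere.

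The 6 genes whose values, centred over the 4 arrays, came closest to the mean of Psmb8, Psmb9 and Psmb10 were Lcp1, H2-DMa, H2-Aa, Mrc1, Efhd2 and Igfbp1, at root mean square distances of 0.05 to 0.10 log2 units among 8200 genes ranked. Lcp1 encodes the leukocyte protein plastin-2, H2-DMa and H2-Aa belong to MHC class II, and Mrc1 is the mannose receptor of macrophages. Lcp1 was at 9.20 on GN+Captopril and 9.46 on the GN+Water-labelled array, against 8.31 on Saline+Captopril and 8.15 on Saline+Water. Psmb8, Psmb9 and Psmb10 were themselves at distances of 0.18, 0.17 and 0.14 from their mean, and Psmb5, Psmb6 and Psmb7 at 0.49, 0.50 and 0.46. Such a likeness over 4 arrays describes them only.

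**Figure D4:**
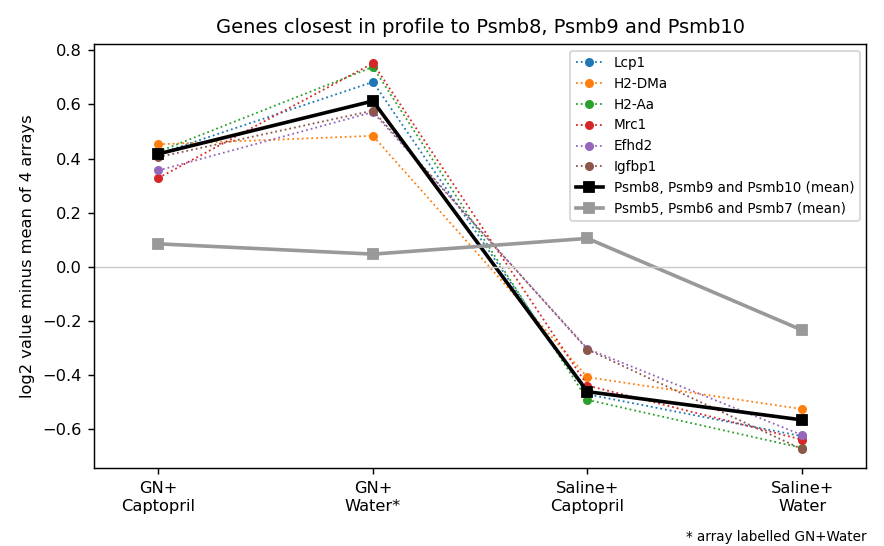
Log2 value minus the gene's mean over the 4 arrays (vertical axis) by array (horizontal axis), for the mean of Psmb8, Psmb9 and Psmb10 (black), the mean of Psmb5, Psmb6 and Psmb7 (grey) and the 6 closest genes (dotted). The black line is at 0.42 and 0.61 on the GN arrays and -0.46 and -0.57 on the saline arrays, and the grey line lies between 0.05 and 0.10 except on Saline+Water, at -0.24.

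Many leukocyte markers, though not all, were higher on the same arrays as the inducible members. All 4 general leukocyte genes were at least 1.5-fold higher in GN+Captopril than in Saline+Captopril and on the GN+Water-labelled array than on Saline+Water, with median log2 differences of 1.14 and 2.41, where 1.85% and 19.6% of all genes were as much higher. Coro1a and Laptm5 had other probe sets that differed less or went the other way. The lowest of 3 for Coro1a was at -1.63 with water and 0.004 with captopril. For Laptm5 the lowest was at 0.02 and 0.13. The summed level (log2) of the 4 genes was 11.1 on GN+Captopril and 11.8 on the GN+Water-labelled array, against 9.90 on Saline+Captopril and 9.49 on Saline+Water. That of 8 macrophage and dendritic cell genes was 13.7 and 14.1 on these GN arrays, against 12.2 and 12.3. Lyz2 was at 12.0 and 12.7, against 8.81 and 8.86. Of 6 past the filter, 5 were at least 1.5-fold higher with captopril and 6 with water, where 1.85% and 19.6% of all genes were. Csf1r differed least of the 6, by 0.34 and 0.66 (log2). Itgam and Itgax were below the filter. They differed by 0.43 and 0.0 with captopril, and by 1.09 and 0.20 with water. The summed level of 5 markers of T and NK cells was 9.01 and 9.04 on the GN arrays, against 8.73 and 8.90. Cd3e was at 7.06 and 7.13, against 7.13 and 7.31, but Nkg7 was at 6.96 and 6.99, against 6.12 and 6.23. Nkg7 was the 1 of 3 past the filter at least 1.5-fold higher in each GN comparison, where 1.85% and 19.6% of all genes were. Below the filter, Cd3g differed by 0.96 with captopril and 0.48 with water, and Cd8a by 0.20 and -0.29. For 3 of 5 B and plasma cell markers with a probe set the summed level was 10.5 and 12.5, against 7.26 or less on the saline arrays. Jchain alone was at 10.5 and 12.5 on the GN arrays and was the only 1 past the filter. It passed 1.5-fold in both GN comparisons, where 1.85% and 19.6% of all genes were as much higher. Ms4a1 was at 4.66 and 5.98 on the GN arrays, against 4.56 on Saline+Captopril and 5.17 on Saline+Water. Cd79a was at 6.14 and 6.54, against 6.01 and 6.14. The part of these cells in the differences of the proteasome genes was not tested, and in whole-kidney RNA more cells of a type and more RNA per cell cannot be told apart. The summed level of 2 of 3 adipocyte markers with a probe set, Adipoq and Fabp4, was higher too, at 11.6 and 11.4 on the GN arrays, against 10.8 and 10.4. Of 4 Fabp4 probe sets, 2 had the sign of the one used with water and 4 with captopril. The tissue these transcripts came from was not tested.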

How the data were processed

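Biotinylated cRNA of whole mouse kidney was hybridised to Affymetrix arrays, 1 for each of 4 groups, per the labels' protocols. The authors deposited 22690 values per array, whose range is that of log2 intensities of probe sets. GCOS and RMA appear in the submitters' processing notes without version or role; how the arrays were normalised, and against which build, is not given in the sources used here. Exactly equal values on 2 arrays occurred for 1.38% to 7.62% of probe sets, depending on the comparison. Precision is limited by the number of arrays.

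Probe sets were named by the platform annotation, updated through the Entrez ID with a RefSeq table of GRCm38.p6: 20393 had 1 symbol, 691 several and 1606 none. Where a gene had several probe sets, the one of highest mean stood for it, and the 8207 of 12394 genes with a mean of at least 6.27 (the 40th percentile of probe sets) gave the shares of all genes. Log2 differences were taken between arrays in 4 comparisons and counted at 1.5-fold. No test was made: the crossed design leaves 0 residual degrees of freedom, and a fit assuming that GN and captopril add up, which would leave 1, was not run.

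The 8 members, the 8 lists of related genes and the 11 marker lists were chosen with earlier results of these data known. Named genes were the members, up to 4 genes of each list with the largest absolute mean GN difference, and the 6 closest in profile; Tap2, Ifng, Irf1, Irgm1, Psma2, Psmd5, the marker genes and the sex-linked genes were named outside that rule. Psme2 was excluded from counts because its probe set carries 2 symbols, a choice made after the annotation was seen. Alternatives were other probe set choices, median centring, quantile normalisation and cyclic loess (limma 3.58.1 in R 4.3.3), other filters and thresholds, and other arrays as baseline. The code for differences and counts was checked before use on simulated data with set changes. That checks the code and not the results from these arrays.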

Additional observations from a re-analysis of the deposited data

Results flagged for a closer look

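Some members and named genes differed in opposite directions in groups compared under the same contrast. With 1 array per group, none of these differences was tested. For Psmb8 the captopril difference was -0.31 in GN and 0.54 in saline kidneys, a gap of -0.85 on the log2 scale. The gaps of the same kind were -0.37 for Psmb10, -0.21 for Psme1 and -0.39 for the probe set shared by Psme2 and Psme2b, each lower in GN+Captopril than on the GN+Water-labelled array and higher in Saline+Captopril than in Saline+Water.

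The GN difference had opposite signs with captopril and with water for Psmb7 (gap -0.75) and, by less than 0.1 in each, for Psmb6 (gap -0.0815). The same held for Psma1 (gap -0.62), Psmc6 (gap -0.33) and Psmg2 (gap -1.33), which were higher on the GN+Water-labelled array than on Saline+Water and slightly lower in GN+Captopril than in Saline+Captopril. It held the other way for Psmc2 (gap 0.52) and Nfe2l1 (gap 0.57). Probe sets disagreed for some of these genes: the other one of Psmc2 had opposite signs, at 0.18 with water and -0.02 with captopril, and with captopril 1 of 3 probe sets of Psmc6 and 1 of 3 of Psma1 had the sign given. The water comparison uses both arrays that stood apart.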

How the results depend on the processing

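No paired analysis was possible because each group has 1 array and the labels give no replicate numbers. Leaving out probe sets of kinds shared between transcripts or genes removes Psmb8 and Psmb5; the immunoproteasome shift then was 0.58 on the GN+Water-labelled array over Saline+Water and -0.56 in Saline+Captopril over Saline+Water, the constitutive medians in these comparisons were 0.37 and 0.45, and 1 inducible member was at least 1.5-fold higher in GN+Captopril than in Saline+Captopril. With Saline+Captopril taken as the saline array for water, the Psmb7 difference reversed to -0.15 and 0 constitutive subunits were higher. At 2-fold, 1 inducible member was higher in each GN comparison (Psmb9 with captopril, Psmb8 with water), 0 constitutive subunits were higher on the GN+Water-labelled array than on Saline+Water, and 0 in Saline+Captopril over Saline+Water. Without the GN+Water-labelled array, 1 constitutive subunit, Psmb5, lay higher in GN+Captopril than on both saline arrays. On the GN+Water-labelled array over Saline+Water the shift ran between 0.58 and 1.13 over its alternatives. In GN+Captopril over Saline+Captopril it stayed between 0.87 and 0.97 over its alternatives. The setting that adds the shared Psme2 probe set and those that leave out an array were chosen after seeing the data. Levels of all members were above the 90th percentile of negative controls on each array. Whether probe sets at high and low levels respond alike was not tested.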
